A study of Mus musculus with 31 samples.

Results

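Milk protein genes were followed here across the mammary lesions of K5ΔNβcat mice: *Csn1s1*, *Csn1s2a*, *Csn2* and *Csn3*, which encode the caseins, *Wap* and *Lalba*, which encode whey proteins, *Btn1a1*, which encodes a protein of the milk fat globule membrane, and *Glycam1*, which encodes a mucin of milk. The 8 genes were chosen by their symbols in the array annotation, with their signals in these samples already known, and 16 probe sets carried these symbols, out of 45037 probe sets and 18193 genes with 1 symbol. Since the choice rested on these signals, the values of the 8 genes are given as a description, with no test. K5ΔNβcat mice express an N-terminally truncated, stabilized β-catenin from the keratin 5 promoter, so that the transgene is active in the basal cells of the mammary epithelium. One array each was run for 4 samples of mammary tissue from control mice, and, from K5ΔNβcat females, for hyperplasias labelled small (5) or large (5) and for 11 tumors. Basal cells sorted from K5creMycL/L mice, in which Cre under the keratin 5 promoter deletes *Myc* (3 arrays), and from control mice (3 arrays) formed a separate set, each array holding a pool of several mice. The strain was labelled C57BL6 throughout, but the study's methods give a mixed background of C57BL6 and another strain for all mice. The labels give neither age nor parity for any array, and the study's tumor cohorts held both virgin and parous females.

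Milk proteins are made by the luminal cells of the alveoli, which differentiate in pregnancy and secrete in lactation. Prolactin binds its receptor, the kinase Jak2 phosphorylates Stat5a and Stat5b, and these factors act on casein and whey gene promoters together with the glucocorticoid receptor, C/EBPβ and Elf5. Calcium-binding caseins are held in micelles by κ-casein, the product of *Csn3*. α-Lactalbumin turns the galactosyltransferase B4galt1 into lactose synthase, and *Wap* and *Lalba* are known as late genes of the secretory programme. *Glycam1* is also known from the high endothelial venules of lymph nodes, where its product carries sugars bound by L-selectin.

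*Csn1s1*, *Csn2* and *Csn1s2a* are 3 consecutive protein-coding genes of mouse chromosome 5 in the RefSeq gene table, and *Csn3* lies in the same cluster, the eighth gene counted from *Csn1s1*. RefSeq promoters (build GRCm38.p6) were found for 6 of the 8 genes, *Csn3* and *Btn1a1* having no entry. The STAT-type motif TTCNNNGAA, which reads the same on both strands, was searched in the 250 bases before each start, and was found in 3 of the 6 promoters, against 7.02% of 32851 mouse promoters over the same length. A match is a description of the letters only. The 3 promoters with a match are shown 5′ to 3′ on the strand of the gene, with the match in capitals. They lie at chr5:87665958-87666207 on the plus strand for *Csn1s1*, at chr5:87699426-87699675 on the minus strand for *Csn2*, and at chr15:103565082-103565331 on the minus strand for *Glycam1*.
Csn1s1: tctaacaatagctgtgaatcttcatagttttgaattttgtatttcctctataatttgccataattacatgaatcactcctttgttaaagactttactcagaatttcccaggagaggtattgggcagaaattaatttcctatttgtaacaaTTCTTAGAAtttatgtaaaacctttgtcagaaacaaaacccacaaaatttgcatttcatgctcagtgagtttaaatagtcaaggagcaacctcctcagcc
Csn2: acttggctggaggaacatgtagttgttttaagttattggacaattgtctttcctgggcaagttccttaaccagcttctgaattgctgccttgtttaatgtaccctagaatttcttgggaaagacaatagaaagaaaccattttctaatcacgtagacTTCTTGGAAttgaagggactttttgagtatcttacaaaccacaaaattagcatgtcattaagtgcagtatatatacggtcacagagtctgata
Glycam1: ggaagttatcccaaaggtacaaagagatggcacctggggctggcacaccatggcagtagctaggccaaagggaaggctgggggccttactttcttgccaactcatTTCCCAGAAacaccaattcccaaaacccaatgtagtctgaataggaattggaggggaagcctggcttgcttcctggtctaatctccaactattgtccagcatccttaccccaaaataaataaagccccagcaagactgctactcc
The first base of the match was 100 bases before the start in *Csn1s1*, 93 in *Csn2* and 145 in *Glycam1*. *Wap*, *Lalba* and *Csn1s2a* held no such letters in the window.

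Signals are linear MAS5 intensities, scaled by the authors so that arrays share a common mean, and signals below 30 were taken as background. A gene is given by its brightest probe set, and levels are compared between samples only, never between probe sets. Median signals per array were 27.1 to 30.1 for control tissue. They were 28.3 to 29.97 for small and 29.8 to 32.9 for large hyperplasias, and 23.9 to 29.6 for tumors. Tumors 1, 2 and 3 had array medians of 29.1, 29.6 and 29.6, and the 8 other tumors had 23.9 to 26.7. Keratin 14 (*Krt14*), a marker of the basal layer, had signals of 3600 to 5539 in tumors and 285 to 363 in control tissue. *Krt18*, a luminal keratin, had 585 to 2713 in tumors and 1323 to 2318 in control tissue. All 9 markers listed for luminal cells as a whole reached 30 in every tissue group. Of 6 luminal progenitor markers, *Cyp24a1* was below 30 in every tissue group, and *Lif* in control tissue and small hyperplasias. The summed signal of 4 hormone-sensing luminal markers was 128 to 861 in tumors and 2034 to 2483 in control tissue. In these bulk samples, fewer cells of a type and less RNA per cell cannot be told apart.

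The αs- and β-type caseins were high in the tumors, and milk protein signals were uneven among them. Tumors 1, 2 and 3 had the 3 highest signals of each of the 8 genes, in the same order for every gene, tumor 3 being the highest, then tumor 1, then tumor 2. All 8 genes were at or above 30 in those 3 tumors and in tumor 10, while tumors 8 and 11 had 3 genes at or above 30. Control tissue had 2 such genes on each of its 4 arrays, *Csn3* and *Btn1a1*. The summed signal of the 8 genes ranged from 811 in tumor 7 to 39878 in tumor 3, with a median of 5628, against 865 to 2317 in control tissue.

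**Figure D1:**
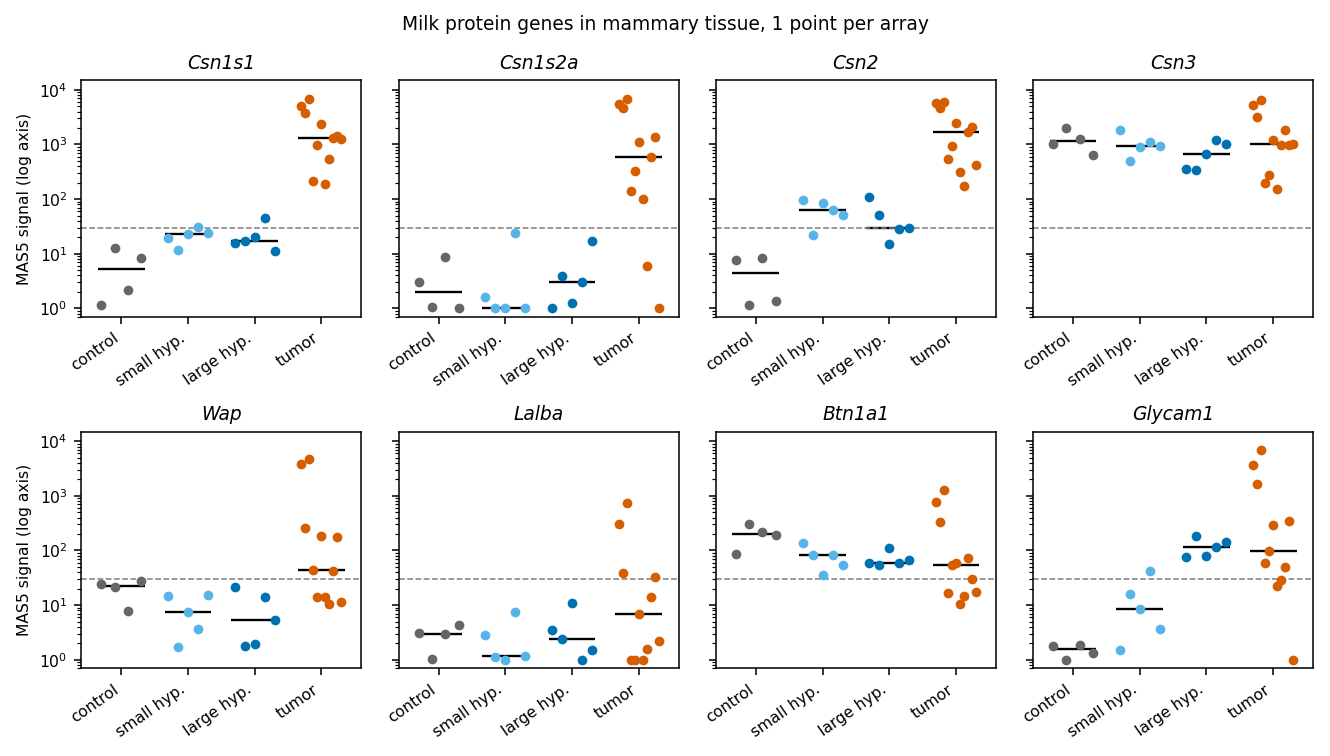
MAS5 signal (log axis, values under 1 drawn at 1) of each of the 8 genes in control tissue (n = 4), small hyperplasias (n = 5), large hyperplasias (n = 5) and tumors (n = 11), with 1 point per array, black bars at group medians and a dashed line at the background of 30. *Csn1s1* and *Csn2* were above every control sample in all 11 tumors, *Csn3* overlapped among all groups, and *Wap* and *Lalba* were below background in control tissue and in both hyperplasia groups.

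*Csn2* encodes β-casein, a major casein of mouse milk. Its signals were 7.67, 1.15, 8.43 and 1.37 in control tissue, 96.7, 22.0, 84.8, 63.7 and 50.3 in small hyperplasias, and 108, 51.6, 15.2, 28.5 and 29.8 in large hyperplasias. In tumors 1, 2 and 3 they were 5775, 4639 and 6004, and in the 8 other tumors 172 to 2433, with a median of 1707 over all 11. Thus the control samples lay lowest, both hyperplasia groups lay above them without overlap, and every tumor lay above every hyperplasia. Since all control samples were below background, the fold is a lower bound, taken from the geometric mean of the other group over 30. Tumors were at least 43.1-fold higher than control tissue, small hyperplasias at least 1.89-fold and large hyperplasias at least 1.24-fold. Signals below 30 entered these means as measured, here and for the genes below. That held for 1 of 5 small and 3 of 5 large hyperplasias, so their folds are not firm bounds. The second probe set of *Csn2* showed less of the difference in hyperplasias, control tissue having 8.31 to 20.4, small hyperplasias 10.9 to 46.0, large hyperplasias 4.82 to 31.4 and tumors 57.7 to 5066. With that probe set both hyperplasia groups overlapped control tissue, and the tumors did not.

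*Csn1s1*, encoding an αs1-type casein, gave 1.16, 12.9, 2.21 and 8.50 in control tissue, 19.1, 11.5, 22.9, 30.2 and 23.6 in small hyperplasias, and 15.6, 16.8, 20.0, 45.3 and 11.0 in large hyperplasias. Signals in tumors 1, 2 and 3 were 5079, 3753 and 6886, and the 8 other tumors had 191 (tumor 7) to 2352 (tumor 6). All 11 tumors lay above every other tissue sample, at least 42.8-fold higher than control tissue. In each hyperplasia group 4 of 5 samples lay above the highest control sample, but 1 of 5 reached 30.

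*Csn1s2a*, encoding an αs2-type casein, was below 30 in all 14 samples of control tissue and hyperplasias, control tissue having 0.727 to 8.81, small hyperplasias 0.307 to 24.3 and large hyperplasias 0.584 to 16.7. Tumors 1, 2 and 3 gave 5445, 4631 and 6778. The signal was 99.3 to 1369 in 6 other tumors, and below background in tumor 8 (5.97) and tumor 11 (0.961). Tumors 8 and 11 thus held *Csn2* at 172 and 430 and *Csn1s1* at 552 and 1239 without a *Csn1s2a* signal. Over the 11 tumors the geometric mean of the gene was 10.8 times the background of 30. That is not a firm bound on the fold, as tumors 8 and 11 were below 30. Of its 4 other probe sets, 1 had 9 tumors at or above 30 as well, 2 had 4 and 3 tumors, and 1 stayed below 17.0 in tumors and hyperplasias and at 18.3 or less in control tissue.

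*Csn3* differed from the other caseins in being well above background in every tissue sample. Its signals were 1036, 1978, 1255 and 629 in control tissue, 1872, 505, 912, 1117 and 939 in small hyperplasias, and 357, 339, 678, 1211 and 1031 in large hyperplasias. Tumors 1, 2 and 3 had 5182, 3198 and 6452, above all control samples, while tumors 4, 5 and 7, at 197, 271 and 154, lay below all of them. The 5 remaining tumors had 961 to 1810, within the control range. The difference of the mean log2 values (of the signal plus 16) was -0.08 ± 0.71 between tumors and control tissue (SE of limma), and the tumors spread 41.8-fold from the lowest to the highest. Its second, dimmer probe set overlapped likewise, at 4.27 to 286 in tumors and 27.9 to 67.7 in control tissue.

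Of the whey protein genes, *Wap* had 24.0, 21.5, 7.74 and 27.0 in control tissue, 1.70 to 15.4 in small hyperplasias and 1.78 to 21.7 in large hyperplasias, all below background. It reached 3797, 259 and 4828 in tumors 1, 2 and 3, and 181, 178, 44.0 and 41.6 in tumors 6, 10, 4 and 9. The 4 remaining tumors gave 10.5 to 14.3, inside the control range. Over the 11 tumors the geometric mean of *Wap* was 3.21 times the background of 30. That is not a firm bound on the fold, as 4 tumors were below 30. Its signal in tumor 2 lay far below those in tumors 1 and 3, although the casein signals of tumor 2 were closer to theirs. *Lalba* was at 0.536 to 10.7 in all hyperplasias and at 1.04 to 4.30 in control tissue. It was clearly above background in tumor 1 (301) and tumor 3 (743), just above it in tumors 2 and 10 (39.1 and 32.5), and at 0.683 to 14.3 in the 7 other tumors.

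*Btn1a1*, whose product butyrophilin is needed for the secretion of milk fat droplets, was present in control tissue at 87.7, 301, 215 and 193. It had 137, 82.5, 35.9, 84.4 and 53.5 in small hyperplasias, and 59.0, 54.4, 109.7, 60.0 and 66.7 in large hyperplasias, with 4 of 5 samples of each group below every control sample. Tumors 1, 2 and 3 had 764, 334 and 1306, above every control sample, and the 8 other tumors had 10.7 to 72.6, below every control sample. The tumors therefore lay on both sides of the control range with none inside it, and the difference of the mean log2 values was -1.04 ± 0.76, while the mean signal on the linear scale was 244 in tumors and 199 in control tissue. Both other probe sets of the gene were dim, reaching 56.4 and 36.5 in tumors and at most 21.3 in control tissue.

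*Glycam1* was the gene with the clearest difference in large hyperplasias. It had 1.78, 0.943, 1.87 and 1.32 in control tissue, 1.48, 16.2, 8.37, 41.8 and 3.71 in small hyperplasias, and 75.5, 187, 79.9, 115 and 141 in large hyperplasias. Tumors 1, 2 and 3 had 3635, 1646 and 6880, and the 8 other tumors had 0.894 to 349. All 5 large hyperplasias lay above every control sample, at least 3.76-fold higher, and 10 of 11 tumors did, tumor 11 being at the control level. Over all 11 tumors the geometric mean was 4.89 times the background of 30. That is not a firm bound on the fold, as 3 tumors were below 30. Lymphocyte markers moved alongside in the large hyperplasias: the summed signal of 7 B and T cell markers spanned 107 to 222 on the control arrays, 121 to 284 on those of small and 267 to 776 on those of large hyperplasias, and 73.0 to 295 on those of tumors. Of 4 markers of lymph node endothelium and stroma, *Chst4*, *Fut7* and *Madcam1*, which are known from high endothelial venules, were below 30 on all tissue arrays, and *Cxcl13*, a chemokine that attracts B cells, had 168 to 487 in large hyperplasias against 44.7 to 71.0 in control tissue. The part of lymphoid cells in the *Glycam1* signal was not tested.

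Among all 24086 probe sets tested in tumors against control tissue, 19.7% had every tumor above every control sample, as *Csn1s1* and *Csn2* did. The share was 20.8% of 24001 probe sets in large hyperplasias, where *Glycam1* did so, and 12.0% of 23489 in small hyperplasias, where *Csn2* did. In large hyperplasias *Csn2* also lay above every control sample, but with a median of 29.8 it was not among the probe sets tested. As the genes were chosen on these signals, nothing is read from these counts. The median log2 difference over the 8 genes was 2.85 in tumors, 0.07 in large hyperplasias and 0.02 in small hyperplasias, each against control tissue, and that over all tested probe sets was -0.03, 0.06 and -0.00040. With signals below 30 set to 30, so that genes at background count at their bound, the medians over the 8 genes were 2.47, 0 and 0. Without tumors 1, 2 and 3, a choice made after seeing the data, the median in tumors was 1.43. Against the background of 30, the 8 tumors left were at least 25.1-fold higher than control tissue for *Csn2* and 25.5-fold for *Csn1s1*. Their geometric mean was 3.73 times the background for *Csn1s2a*, 1.496 times for *Glycam1* and 1.10 times for *Wap*. These last values are not firm bounds, since some of the 8 tumors were below 30 for each gene. All 8 lay above every control sample for *Csn2* and *Csn1s1*, 7 for *Glycam1*, 6 for *Csn1s2a*, 4 for *Wap* and 3 for *Lalba*. For *Lalba* their geometric mean was 0.0969 of the background, and for *Wap* 4 of the 8 were below 30. The log2 difference was then -0.87 for *Csn3* and -2.12 for *Btn1a1*.

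**Figure D2:**
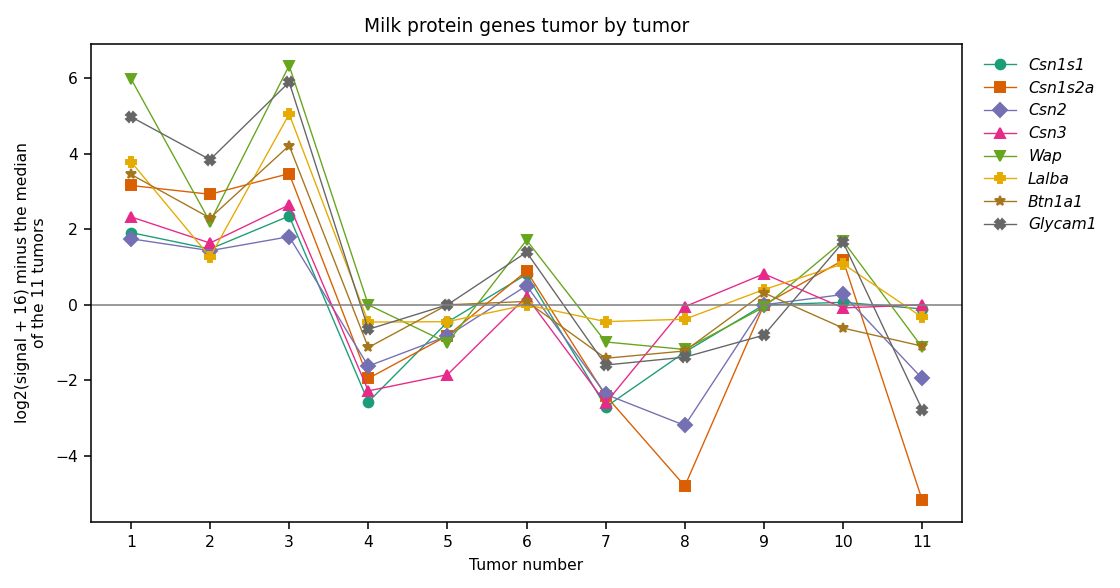
Log2 of the signal plus 16, minus the median of the 11 tumors, for each of the 8 genes (one line and marker per gene) in tumors 1 to 11; tumors have no order and lines only join the points of a gene. All 8 genes were at their highest in tumors 1, 2 and 3, and *Csn1s2a* lay furthest below its median in tumors 8 and 11.

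The genes varied together over the tumors. The Pearson correlation of each gene with the mean standardized log2 signal of the 7 others was 0.83 (*Csn3*) to 0.95 (*Btn1a1* and *Glycam1*) over 11 tumors, and 0.49 (*Csn3*) to 0.93 (*Csn2*) over the 8 tumors left without tumors 1, 2 and 3. These tumors are the same arrays for every gene and share array scale and tissue composition, so the values are a description. Outside tumors 1, 2 and 3, tumors 6 and 10 had the next highest *Csn2* and *Wap* signals, and tumors 7 and 4 had the lowest *Csn1s1* and *Csn3* signals.

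The 10 other genes whose log2 signal was most like the mean standardized signal of the 8 genes over the 11 tumors, among 8522 genes reaching 100 in a tumor, were *Cck*, *Thrsp*, *Col9a1*, *Ptpn14*, *Fads1*, *Pck1*, *Atp6v1b1*, *Cidec*, *Krt81* and *Foxi1*, with Pearson correlations of 0.93 to 0.96. Without tumors 1, 2 and 3 the correlations of these genes were 0.50 (*Foxi1*) to 0.91 (*Cck*), so that several rest on those 3 tumors. *Thrsp*, a regulator of fatty acid synthesis, had signals of 516, 261 and 598 in tumors 1, 2 and 3, 3.28 to 114 in the other tumors, and 3629 to 5579 in control tissue. *Pck1* and *Cidec*, genes of fat cell metabolism and lipid droplets, ran the same way, at 73.5 to 123 and 89.5 to 123 in tumors 1, 2 and 3 and at 0.908 to 44.4 and 0.725 to 26.4 in the other tumors, against 2901 to 3175 and 5231 to 5705 in control tissue. *Col9a1*, encoding a collagen best known from cartilage, had 339, 235 and 670 in tumors 1, 2 and 3, 13.0 to 56.8 in the other tumors and 11.0 to 21.7 in control tissue, and *Krt81*, a hair keratin, had 233, 186 and 298, then 38.2 to 85.6, and 41.9 to 65.1 in control tissue. *Fads1*, a fatty acid desaturase, spanned 146 to 382 in tumors and 470.0 to 818 in control tissue. *Foxi1*, a forkhead factor, and *Atp6v1b1*, a proton pump subunit, reached 145 and 164 in tumor 3 and were at 21.9 and 30.01 or less in the 8 tumors other than 1, 2 and 3, against 72.8 to 118 and 54.6 to 89.3 in control tissue. *Cck*, which encodes the hormone cholecystokinin, had 70.0 to 230 in tumors 1, 2 and 3 and 7.51 to 92.4 in the other tumors, against 43.7 to 103 in control tissue. *Ptpn14*, a tyrosine phosphatase, varied the least, from 154 to 237 in tumors, against 313 to 409.6 in control tissue.

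Several other genes moved with the milk protein genes in tumors 1, 2 and 3. *Adipoq*, the fat cell hormone adiponectin, had 1004, 519 and 740 there and 5.64 to 207 in the other tumors. Control tissue had 11329 to 12493, small hyperplasias 5445 to 7085 and large hyperplasias 4301 to 5241. The summed signal of 7 adipocyte markers was 3746 to 5843 in tumors 1, 2 and 3 and 678 to 6305 in the other tumors, tumor 9 being the highest. Singly, 6 of the 7 correlated with the mean of the 8 milk protein genes over the 11 tumors at 0.70 (*Fabp4*) to 0.93 (*Pck1* and *Cidec*), and *Lep* was below 30 in all tumors. *Wfdc18*, a secreted protein related to *Wap*, had 3647, 3114 and 4604 in tumors 1, 2 and 3 and 345 to 1039 in the other tumors, against 1159 to 3088 in control tissue. *Kit*, a marker of luminal progenitors, had 195 to 296 in those tumors and 63.4 to 135 in the others, with 170.4 to 437 in control tissue. The summed signal of 6 luminal progenitor markers, *Kit* among them, was 2508, 2572 and 2980 in tumors 1, 2 and 3 and 968 to 2791 in the others, and *Aldh1a3* of that list ran the other way over the tumors (r = -0.36, against 0.85 for *Kit*). *Csn1s2b*, which neighbours *Csn1s2a*, was above background in tumors 1 and 3 (587 and 579) and at 21.0 in tumor 2, and at 5.81 or less in the other tumors, and it was above background in 2 small hyperplasias (52.6 and 35.7). By contrast the summed signal of the 9 luminal markers was 7376 to 9183 in tumors 1, 2 and 3, within the 5194 to 10969 of the other tumors. *Wfdc18*, *Kit* and *Csn1s2b* were picked out after their values were seen, and the part of cell composition in the milk protein signals was not tested.

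Genes of milk formation outside the 8 were tested with limma on log2 of the signal plus 16. Of 58 listed genes 54 were analysed here, and probe sets were tested where the higher group median reached 30. In tumors against control tissue 16 of 49 tested genes were higher and 21 lower at an adjusted p under 0.05, where 33.2% of all probe sets tested were called higher and 35.9% lower. Their median log2 difference was -0.50, below the median of all probe sets (-0.03). In large hyperplasias 12 of 49 were higher and 11 lower (25.6% and 20.1% of all probe sets), and in small hyperplasias 7 were higher and 5 lower (16.8% and 14.4%). Over all lists the counts called thus lay near the shares of the whole array, and the lists differed in direction.

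**Figure D3:**
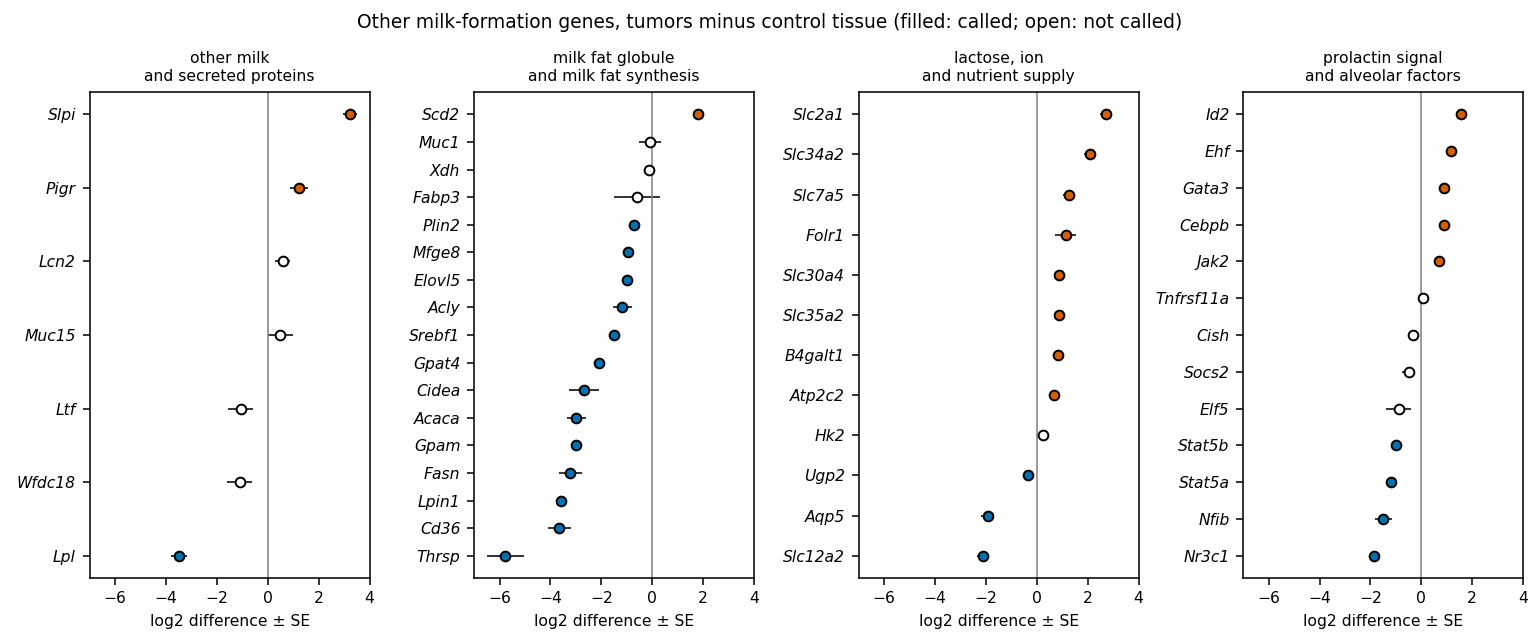
Log2 difference between tumors (n = 11) and control tissue (n = 4) for each tested gene of 4 lists of milk formation, with bars for the standard error of limma; filled points passed an adjusted p of 0.05, orange higher and blue lower, and open points did not. Of the milk fat list 13 of 17 genes were lower, while 8 of 12 genes of the lactose, ion and nutrient list were higher.

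Genes of milk fat synthesis and the fat globule were mostly lower in tumors: 13 of 17 fell, 1 rose (*Scd2*) and 3 did not pass. Among all probe sets tested, 35.9% were called lower and 33.2% higher. *Thrsp* differed by -5.77 ± 0.73 on the log2 scale (adjusted p = 1.46e-07, limma), *Cd36*, a fatty acid carrier, by -3.65 ± 0.44 (adjusted p = 8.04e-08), and *Lpin1*, a phosphatidate phosphatase, by -3.58 ± 0.17. The fatty acid synthase *Fasn* fell to 338 to 836 in tumors, against 3627 to 6939 in control tissue (-3.22 ± 0.45, adjusted p = 6.66e-07), and *Gpam*, the first enzyme of glycerolipid synthesis, to 102 to 292 against 1264 to 1730 (-2.99 ± 0.17). *Xdh* and *Muc1*, which encode proteins of the fat globule membrane as *Btn1a1* does, and *Fabp3* did not pass the test. In large hyperplasias 6 genes of this list fell and 1 rose, and in small hyperplasias 5 fell and 1 rose. *Lpin1* fell in large (-1.48 ± 0.20, adjusted p = 1.3e-06) and small hyperplasias (-0.77 ± 0.20, adjusted p = 0.00445), as *Gpam* did (-1.30 ± 0.20, adjusted p = 1.07e-05, and -0.70 ± 0.20, adjusted p = 0.0101), whereas *Fasn*, *Cd36* and *Thrsp* did not pass in either. These genes are used by fat cells as well as by alveolar cells, and the summed signal of 7 adipocyte markers (of which *Cidea* is in both lists) was 678 to 6305 in tumors and 41657 to 45662 in control tissue. The part of fat cells in these differences was not tested.

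Genes supplying lactose, ions and nutrients ran the other way in tumors, with 8 of 12 higher, 3 lower and 1 not passing. Of all probe sets tested, 33.2% were called higher and 35.9% lower. The summed signal of the 13 genes of the list overlapped, at 3683 to 5713 in tumors and 3524 to 5476 in control tissue. *Slc2a1*, the glucose transporter GLUT1, had 759 to 2141 in tumors, against 173 to 210.1 in control tissue, without overlap (log2 difference 2.71 ± 0.21, adjusted p = 3.16e-11, limma). *Slc34a2*, a phosphate transporter, was higher by 2.09 ± 0.25 (adjusted p = 4.8e-08) and the amino acid transporter *Slc7a5* by 1.26 ± 0.22 (adjusted p = 2.43e-05). *Slc12a2*, a sodium, potassium and chloride transporter, was lower by a log2 difference of -2.10 ± 0.23 (adjusted p = 1.11e-08), as was the water channel *Aqp5* by -1.93 ± 0.25 (adjusted p = 2.7e-07). Among the tumors *Slc2a1* ran apart from the milk protein genes: it had 896, 759 and 874 in tumors 1, 2 and 3, the lowest signals, and 903 to 2141 in the others. In large hyperplasias 4 genes of the list were higher and 3 lower of 12 tested, and in small hyperplasias 2 were higher and 0 lower. *Slc7a5* passed in both (0.80 ± 0.26, adjusted p = 0.0138, in large and 1.00 ± 0.26, adjusted p = 0.00485, in small hyperplasias), the call in large hyperplasias being lost without control sample 3 (0.67). *Slc2a1* (0.99 ± 0.24, adjusted p = 0.00183) and *Slc12a2* (-1.26 ± 0.26, adjusted p = 0.000343) passed in large hyperplasias, and their difference in small hyperplasias did not pass (0.56 ± 0.24 and -0.09 ± 0.26).

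Among other secreted proteins 2 of 7 tested genes were higher in tumors, 1 lower and 4 did not pass. *Slpi*, a protease inhibitor, had 2773 to 5183 in tumors, against 259.9 to 785 in control tissue (log2 difference 3.23 ± 0.27, adjusted p = 1.4e-10, limma), and was higher in large hyperplasias (1.47 ± 0.31, adjusted p = 0.000484) and small hyperplasias (1.41 ± 0.31, adjusted p = 0.0014) too. *Pigr*, the receptor that carries IgA into milk, was higher by 1.23 ± 0.35 in tumors (adjusted p = 0.00323), but it was dim, at 11.3 to 182, and did not pass with signals below 30 set to 30 (0.78) or with its second probe set (1.03). Lipoprotein lipase (*Lpl*), a fat cell gene as well, had 259.5 to 1939 in tumors, against 9587 to 12365 in control tissue (-3.48 ± 0.31, adjusted p = 4.46e-10). *Wfdc18* did not pass in tumors (-1.09 ± 0.49, adjusted p = 0.0506).

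Factors of prolactin signalling and alveolar differentiation were split in tumors. Of 13 tested genes 5 were higher, 4 were lower and 4 did not pass, near the 33.2% and 35.9% of all probe sets. The prolactin receptor gene *Prlr* was not among the genes analysed. *Stat5a* had 69.0 to 176 in tumors, against 209 to 270.0 in control tissue, without overlap (-1.19 ± 0.19, adjusted p = 4.56e-06, limma). Within the tumors its signals were 136, 151 and 176 in tumors 1, 2 and 3 and 69.0 to 90.7 in the 8 others. The tumors with the most milk protein signal thus also had the most *Stat5a*, while staying below every control sample. Over the tumors its correlation with the mean of the 8 milk protein genes was 0.87. Those of other factors in the list differed, with 0.63 for *Elf5*, 0.61 for *Nfib* and 0.35 for *Stat5b*. They were -0.13 for *Cebpb*, -0.32 for *Tnfsf11* and -0.39 for *Jak2*. The ETS factor *Elf5* had 515, 563 and 936 in tumors 1, 2 and 3, 49.0 to 358 in the other tumors, and 212, 502, 575 and 325 in control tissue. Its difference did not pass over all tumors (-0.90 ± 0.49, adjusted p = 0.109), and it passed as lower without tumor 3 (-1.11) and without tumors 1, 2 and 3 (-1.52). The glucocorticoid receptor gene *Nr3c1* was lower in tumors by -1.85 ± 0.15 (adjusted p = 8.2e-11) and *Nfib* by -1.50 ± 0.33 (adjusted p = 0.000268). *Id2*, an inhibitor of helix-loop-helix factors, was higher by 1.55 ± 0.17 in tumors (adjusted p = 1.21e-08), 1.73 ± 0.19 in large hyperplasias (adjusted p = 1.12e-07) and 1.49 ± 0.19 in small hyperplasias (adjusted p = 3.35e-06), although the rise in tumors did not pass with its second probe set (0.12). *Ehf*, an ETS factor, was higher by 1.18 ± 0.18 in tumors (adjusted p = 2.88e-06) and 0.82 ± 0.21 in large hyperplasias (adjusted p = 0.00224). *Stat5a* and *Elf5* did not pass in either hyperplasia group (*Stat5a* -0.44 ± 0.22 and *Elf5* -0.82 ± 0.57 in large, *Stat5a* 0.24 ± 0.22 and *Elf5* -0.78 ± 0.57 in small hyperplasias).

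In sorted basal cells, *Myc* checked the labels: its signals were 141, 428 and 42.3 in Myc-deficient pools 1, 2 and 3, and 1479, 1677 and 1869 in control pools. The groups did not overlap, and the log2 difference of -3.40 ± 0.54 had an adjusted p of 0.251 by limma over all probe sets, and of 0.104 with the pool number as a block (± 0.46). The pools came from sorting by CD24 and CD49f. Same-numbered pools deviated together, so that numbers were treated as pairs, although the labels name no pairs. Values are given with and without the block. Tissue and sorted cells were amplified with different kits and are not compared with each other. Median signals per array were 15.0 to 19.7 in Myc-deficient and 13.2 to 18.8 in control pools.

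Caseins were detected in some pools of either genotype. *Csn2* had 82.8, 3.82 and 237 in Myc-deficient pools 1, 2 and 3, and 7.59, 0.652 and 123 in control pools. *Csn1s1* had 56.5, 1.35 and 203 in Myc-deficient pools, and 4.54, 6.52 and 138 in control pools. *Csn1s2a* had 279.7, 10.8 and 322 in Myc-deficient pools, and 11.7, 5.74 and 326 in control pools. All 3 genes were thus high in both pools numbered 3, at background in both pools numbered 2, and above background in pool 1 of the Myc-deficient cells only. The 4 other probe sets of *Csn1s2a* stayed at 25.2 or less in sorted cells, so its signal there rested on 1 probe set.

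*Csn3* was above background in all 6 pools, at 794, 170 and 369.7 in Myc-deficient cells, and 616, 230.4 and 921 in control cells, with overlap and the lowest value in pool 2 of both genotypes. *Btn1a1* had 133, 42.2 and 7.44 in Myc-deficient cells, and 194, 10.0 and 203 in control cells. *Wap* and *Lalba* were below 30 in every pool, at 13.3 or less, and *Glycam1* reached 30 in control pool 3 only (31.2). The genotypes overlapped for *Csn3* and *Btn1a1*. The median log2 difference over the 8 genes was -0.00199, that over all probe sets tested was -0.0027, and those of the 5 genes whose median reached 30 in either genotype ranged from -0.85 ± 0.81 for *Btn1a1* to 1.23 ± 1.05 for *Csn1s2a*. With the pool number as a block the standard errors were 0.68 and 0.61, and the difference of *Csn2* was 1.06 ± 0.44. *Csn2* was higher in the Myc-deficient pool of all 3 pairs, with both pools of pair 2 below background.

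**Figure D4:**
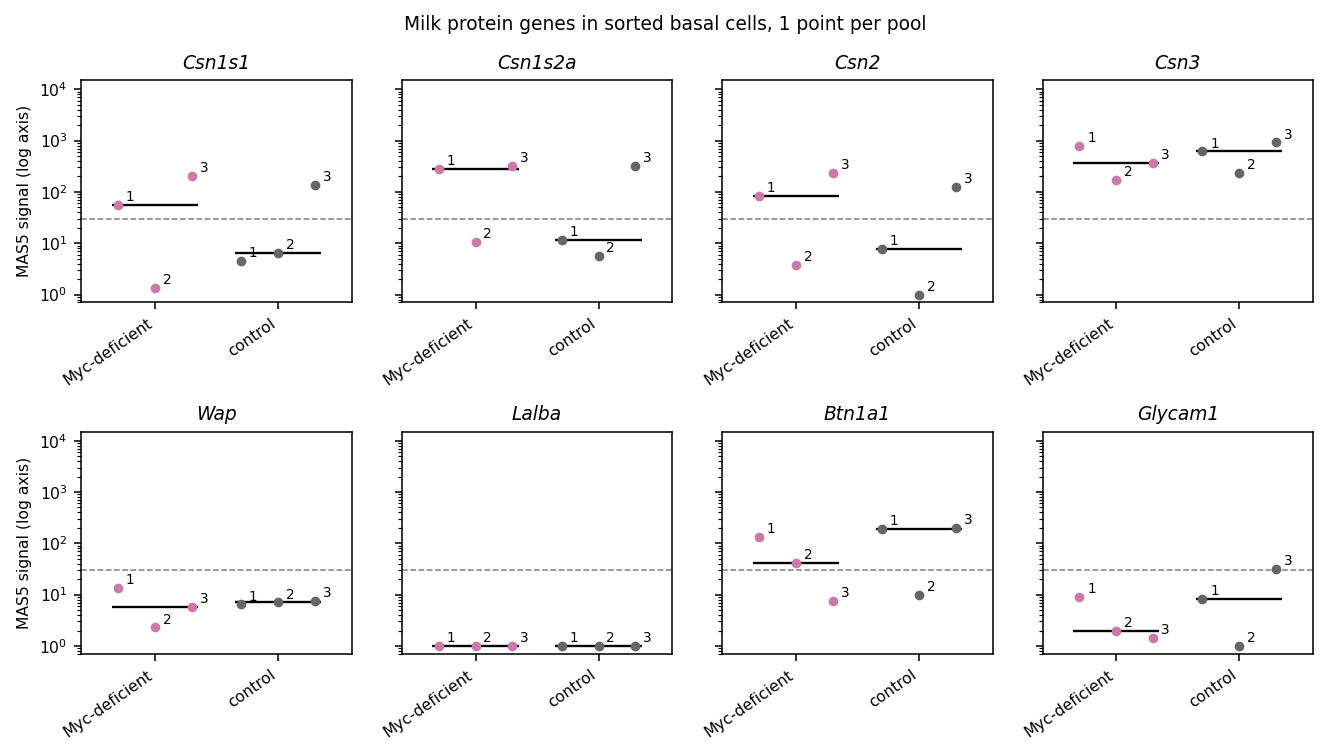
MAS5 signal (log axis, values under 1 drawn at 1) of each of the 8 genes in sorted basal cells from Myc-deficient (n = 3 pools) and control mice (n = 3 pools); numbers give the pool, black bars the medians and the dashed line the background of 30. The 3 αs- and β-type caseins were high in both pools numbered 3 and at background in both pools numbered 2.

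Other secretory and luminal genes followed the pool numbers. *Wfdc18* had 1157, 36.0 and 2024 in Myc-deficient pools 1, 2 and 3, and 1072, 241 and 2665 in control pools, lowest in both pools numbered 2, as *Csn2*, *Csn1s2a* and *Csn3* were. *Elf5* had 32.5, 0.511 and 39.8 in Myc-deficient pools and 106, 9.70 and 91.6 in control pools, again lowest in the pools numbered 2. *Kit* had 26.6, 0.731 and 8.92 in Myc-deficient pools and 56.2, 1.13 and 52.8 in control pools. *Elf5* and *Kit* were lower in the Myc-deficient pool of all 3 pairs, with both pools of pair 2 below background for both genes. *Kit* was below 30 in every Myc-deficient pool. *Krt18* did not follow this order, at 2092, 2319 and 1401 in Myc-deficient pools and 1626, 1148 and 1604 in control pools, nor did the summed signal of the 9 luminal markers, at 8934 to 11878 in Myc-deficient and 7674 to 8743 in control pools, higher in the Myc-deficient pool of all 3 pairs. *Krt14* had 5145 to 7888 in Myc-deficient and 4376 to 5208 in control pools, and *Adipoq* was at 6.10 or less in all. The part of luminal cells carried over in the sort was not tested. Of 41 milk formation genes tested in these cells 0 were called higher and 0 lower by limma, with 2 at an unadjusted p under 0.05, where 0% of all 19737 probe sets were called in either direction and 1259 had an unadjusted p under 0.05.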

How the data were processed

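The authors hybridised RNA to Affymetrix Mouse Genome 430 2.0 arrays, 1 per sample, and deposited linear MAS5 intensities, scaled to a target of 100 with Affymetrix Expression Console per the submitters' processing notes (trimmed means were 99.0 to 99.6). Tissue RNA was labelled with an Affymetrix kit and sorted cell RNA amplified with NuGEN kits, so both sets were fitted apart. 64 control probe sets were left out. No 2 arrays held the same values. Each gene was represented by 1 probe set, that of highest mean log2 signal over the arrays fitted.

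The 8 genes, the gene lists and the tests were chosen with earlier results of these data known. Named were the 8 genes, up to 5 called genes per list with the largest log2 difference in tumors, *Stat5a* and *Elf5*, the 10 genes most alike over tumors, and markers beside results; some listed genes are not reported here. Tests used limma 3.58.1 in R 4.3.3 (lmFit, contrasts.fit, eBayes with trend, Benjamini-Hochberg adjustment over all probe sets tested), with 1 fit for 25 tissue arrays, whose shared spread includes that of tumors, and 1 for 6 sorted cell arrays. The script was tested on simulated data. Where nothing says that samples of a group came from separate mice, p-values measure the spread between samples only. The number of arrays limits the precision.

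The labels give pool numbers only and do not name same-numbered pools as pairs. Same-numbered sorted pools deviated together (correlations of 0.22, 0.23 and 0.26), and on that ground alone were treated as pairs. In tissue, such correlations were -0.14 to 0.11 and numbers were not taken as pairs. Alternatives were no offset, a floor at 30, quantile normalization, other filters, the second brightest probe set, only the groups compared, the replicate number as a block, the methods' t-test on signals and leaving out each sample. The errors beside differences are standard errors of limma.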

Additional observations from a re-analysis of the deposited data

Results flagged for a closer look

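Samples of the 8 genes that stood far from their group were looked for in control tissue and both hyperplasia groups, on log2 of the signal plus 16, by the gap to the nearest sample as a share of the range. Of 24 gene and group pairs 3 were marked, and chance marks about 1 in 20. *Csn1s2a* stood apart in small hyperplasia 4 (24.3, with the other small hyperplasias at 0.307 to 1.60) and in large hyperplasia 5 (16.7, with the others at 0.584 to 3.89), in both cases below background. *Btn1a1* stood apart in large hyperplasia 3 (109.7, with the others at 54.4 to 66.7).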

How the results depend on the processing

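Over all tumors the median log2 difference of the 8 genes was 2.85, with 4.54 without an offset and 2.34 to 3.15 without any single sample. In large hyperplasias the median was 0.07, with 0.23 without an offset, 0 with a floor at 30, and 0.0038 to 0.13 without any single sample. The study's methods name a t-test for statistics in general and a fold rule for arrays, and these were joined here. By the methods' t-test with their fold rule, at unadjusted and adjusted p alike, 9 milk formation genes were higher in tumors, against 16 by limma. In large hyperplasias 6 were higher and 6 lower by the methods' t-test, and 5 higher and 4 lower after adjustment, against 12 and 11 by limma. In small hyperplasias 0 were lower by the methods' t-test before and after adjustment, 10 were lower with only the groups compared, against 5 by limma, and 2 were higher after adjustment, against 7. In Myc-deficient cells 1 was lower by the methods' t-test, against 0. Medians near 0 changed sign: that in small hyperplasias (0.02) was -0.17 without an offset and -0.15 without small hyperplasia 4, and that in Myc-deficient cells (-0.00199) was -0.095 to 0.11 without any single pool, the highest without Myc-deficient pool 2, and 0.075 with the second brightest probe sets. The cause of these changes was not tested.

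With the replicate number as a block, 17 genes were higher and 21 lower in tumors, 12 and 11 in large and 10 and 5 in small hyperplasias. In Myc-deficient cells 0 were called. There 0 of all probe sets were called with or without the block, so this count cannot show what the block changes. Without tumors 1, 2 and 3, chosen after seeing the data, 17 were higher and 26 lower. Genes near or below a signal of 30, as most of the 8 were in control tissue, have a bound rather than a level.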
